A study of Mus musculus with 6 samples.

Results

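The tumor necrosis factor (TNF) superfamily was read in bulk RNA sequencing of YUMM3.3 tumors as 52 genes of the 40166 in the count table, all of them among its 20157 protein-coding genes. The members were chosen by symbol alone: *Tnf*, *Lta*, *Ltb*, *Ltbr*, *Fas*, *Fasl*, *Cd40*, *Cd40lg*, *Cd27*, *Cd70*, *Eda*, *Edar*, *Eda2r*, *Relt*, *Traf1* to *Traf7*, and every gene named *Tnfsf* or *Tnfrsf* with a number. They comprised 18 ligands, 27 receptors and 7 TRAF adaptors. Of the receptors, 5 were taken as death receptors (*Fas*, *Tnfrsf1a*, *Tnfrsf10b*, *Tnfrsf21* and *Tnfrsf25*), 3 as decoy receptors (*Tnfrsf11b*, *Tnfrsf22* and *Tnfrsf23*) and 19 as other receptors.

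The 6 tumors grew under the skin of C57BL/6 mice injected with YUMM3.3, a BRAF-mutant mouse melanoma cell line. The mice received either water (vehicle, 3 tumors) or Rigosertib (RGS, a small-molecule RAS mimetic) at 300 mg/kg (3 tumors) by oral gavage on 5 days a week, and the tumors were taken after 17 days of treatment. All 6 tumors came from 1 cell line in immunocompetent hosts, and the methods give an age of 8 to 10 weeks for the mice of the study without an entry for each host. The comparison addresses which genes RGS changes in these tumors. The replicate numbers in the labels are kept here, 7 to 9 for vehicle and 10 to 12 for RGS. The labels do not say more than that they are separate replicates, so p-values measure the spread between these samples.

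TNF ligands are mostly trimeric proteins on the cell surface that can be shed, and they bind receptors on neighbouring cells. Death receptors carry an intracellular death domain, through which they recruit adaptors such as FADD and TRADD and can activate caspase 8; decoy receptors bind ligand without passing on that signal; most other receptors recruit TRAF proteins and activate NF-kB and stress kinases. In tumors, these genes are known from both killing by lymphocytes and costimulation of T cells.

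The libraries held 13837932 to 32555494 counts, and the shallowest vehicle library still exceeded the deepest RGS library. The family took 0.136% to 0.157% of the counts of a library. Mitochondrial genes held 2.13% to 3.20% of counts in vehicle tumors and 5.60% to 8.22% in RGS tumors, and ribosomal protein genes held 5.66% to 10.2% and 3.15% to 3.68%. Of the 7 melanocytic markers examined, *Tyr*, *Dct* and *Mlana* had no count in any tumor, *Tyrp1* had at most 2, *Sox10* had counts only in RGS tumor 11 (18), *Pmel* had at most 25, and *Mitf* had 74 to 261. The pan-leukocyte gene *Ptprc* (CD45), the macrophage gene *Adgre1*, the dendritic cell gene *Itgax* and the T cell genes *Cd3d*, *Cd3e*, *Cd3g*, *Cd8a* and *Cd8b1* were at 0 counts in all 6 tumors. By flow cytometry, the authors measured CD45-positive leukocytes, macrophages, dendritic cells and T cells in YUMM3.3 tumors. Why these genes had no count in the RNA was not tested. The summed level of 5 leukocyte markers was nevertheless 188 to 250 CPM (CPM being the depth-scaled read count of a gene, here with TMM-scaled library sizes) in vehicle and 920 to 1031 CPM in RGS tumors, nearly all from *Laptm5* and *Cd53*. The sum of 5 fibroblast markers was 187 to 254 and 137 to 153 CPM, mostly from *Pdgfra*. The sum of 7 macrophage markers was 65.1 to 70.9 and 83.0 to 106 CPM, nearly all from *Cd68*, not called, and *Cd14*. The other macrophage markers had at most 7 counts in a tumor. The sum of 6 dendritic cell markers was 5.68 to 8.51 and 8.21 to 14.3 CPM. Within it, mean *Flt3* went from 0.228 to 7.90 CPM and mean *Zbtb46*, not called, from 7.05 to 3.20 CPM. Endothelial markers summed to 2.49 to 4.10 and 6.33 to 13.8 CPM, keratinocyte markers to 0.400 to 1.72 and 6.72 to 21 CPM, and melanocytic markers to 4.94 to 7.68 and 4.53 to 10.5 CPM. The keratinocyte sum in RGS tumors came mostly from *Ivl*, which had no count in vehicle tumors. The higher endothelial sum in RGS tumors came mostly from *Cdh5*, whose mean went from 0.555 to 6.20 CPM. *Vwf*, *Pecam1* and *Tek* were not called, and *Kdr* was not tested. T cell markers reached at most 0.602 CPM in vehicle and 1.42 CPM in RGS tumors, NK cell markers at most 0.0713 and 0.753 CPM, B cell markers at most 0.314 and 0.473 CPM, and neutrophil markers at most 0.516 and 0.673 CPM. Called higher among all the markers were *Laptm5*, *Cd53*, *Cd14*, *Flt3*, *Trac*, *Cdh5*, *Dcn* and *Ivl*, and called lower *Pdgfra* and *Pdgfrb*. Vehicle tumor 7 differed more from vehicle tumors 8 and 9 (chi-square per degree of freedom 70.5 and 132) than these did from each other (28.9). The part of these differences, or of depth and RNA composition, in the results on the family was not tested. In bulk tumors, fewer cells of a type and less RNA per cell cannot be told apart.

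Among the members called in the test below, *Fas*, *Tnfrsf9*, *Eda2r*, *Tnfrsf22*, *Tnfrsf23* and *Tnfsf12* kept the call in each of the 18 alternative fits, and the table of RefSeq promoters used here (GRCm38.p6) covered 4 of these: *Fas*, *Tnfrsf9* and *Eda2r*, lower in RGS tumors, and *Tnfrsf23*, higher. Their promoters are shown as the 250 bases before the transcription start, 5′ to 3′ on the strand of the gene, since they stand in front of the genes whose difference held most often. The windows are chr19:34290409-34290658 (plus strand) for *Fas*, chr4:150927749-150927998 (plus) for *Tnfrsf9*, chrX:97377210-97377459 (minus) for *Eda2r* and chr7:143685876-143686125 (minus) for *Tnfrsf23*. Capitals mark matches to AP-1 (TGANTCA) or NF-kB, both strands being searched.
Fas: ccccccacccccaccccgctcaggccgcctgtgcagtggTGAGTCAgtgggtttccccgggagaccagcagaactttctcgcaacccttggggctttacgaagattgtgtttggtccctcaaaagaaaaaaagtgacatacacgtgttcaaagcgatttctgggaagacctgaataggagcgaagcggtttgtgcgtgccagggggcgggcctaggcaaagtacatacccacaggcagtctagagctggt
Tnfrsf9: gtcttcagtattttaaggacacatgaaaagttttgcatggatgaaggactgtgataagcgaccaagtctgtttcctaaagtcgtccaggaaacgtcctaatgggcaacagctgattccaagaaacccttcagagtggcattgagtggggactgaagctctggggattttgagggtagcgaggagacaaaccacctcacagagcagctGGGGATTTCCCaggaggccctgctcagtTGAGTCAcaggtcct
Eda2r: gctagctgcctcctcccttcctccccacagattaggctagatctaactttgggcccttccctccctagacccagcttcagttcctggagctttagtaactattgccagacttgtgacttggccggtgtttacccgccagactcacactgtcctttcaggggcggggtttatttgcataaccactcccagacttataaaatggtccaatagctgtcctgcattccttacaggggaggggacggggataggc
Tnfrsf23: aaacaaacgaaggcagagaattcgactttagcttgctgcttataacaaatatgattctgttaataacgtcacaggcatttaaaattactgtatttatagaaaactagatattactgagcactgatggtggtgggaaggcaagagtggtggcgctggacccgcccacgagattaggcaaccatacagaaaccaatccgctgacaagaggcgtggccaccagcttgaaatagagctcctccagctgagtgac
The *Fas* window held 1 AP-1 match, which began 211 bases before the start. The *Tnfrsf9* window held an AP-1 match 15 bases before the start and 2 overlapping NF-kB matches, 43 and 42 bases before it. The table gives *Tnfrsf9* a further RefSeq start upstream, whose window held neither, and the windows of *Eda2r* and *Tnfrsf23* held neither. Of the 27 tested members with a promoter entry, 4 held an AP-1 match and 2 an NF-kB match, and 1 held a p53 half-site. Over all 32851 promoters of that table, at the same length, 6.75% held the AP-1 match, 3.90% the NF-kB match and 7.13% the p53 half-site. These shares are per promoter, while a member with more than 1 start was counted once if any of its windows held a match. A match is a description of the letters and no evidence of binding.

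A gene was tested where its median count reached 5 in at least 1 group, which 34 of the 52 members and 15355 genes did. The test was edgeR's quasi-likelihood test of RGS against vehicle over all of these genes, and a member was called at a Benjamini-Hochberg adjusted p below 0.05. Of the 34 tested members, 4 were higher in RGS tumors, 6 were lower and 24 were not called, that is 29.4% called against 32.8% of all tested genes. Over all genes, 16.3% were higher and 16.5% lower. The groups did not overlap for 18 of the 34 members, against 45.8% of all tested genes. The median log2 fold change was 0.19 for the family and -0.05 for all genes. The share of the family that was called lay near that background.

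The members that were called higher were the ligands *Tnfsf9* and *Tnfsf12* and the decoy receptors *Tnfrsf22* and *Tnfrsf23*. Those called lower were the death receptors *Fas* and *Tnfrsf10b*, the receptors *Tnfrsf9*, *Tnfrsf18* and *Eda2r*, and the adaptor *Traf5*. Without vehicle tumor 7, 7 members were higher, *Tnfrsf1a*, *Traf4* and *Traf7* being added, and 4 were lower, *Tnfrsf10b* and *Tnfrsf18* being lost; without vehicle tumor 8 or RGS tumor 10, 3 were lower. The plot of log2 fold changes by role sets these beside the other tested members.

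**Figure D1:**
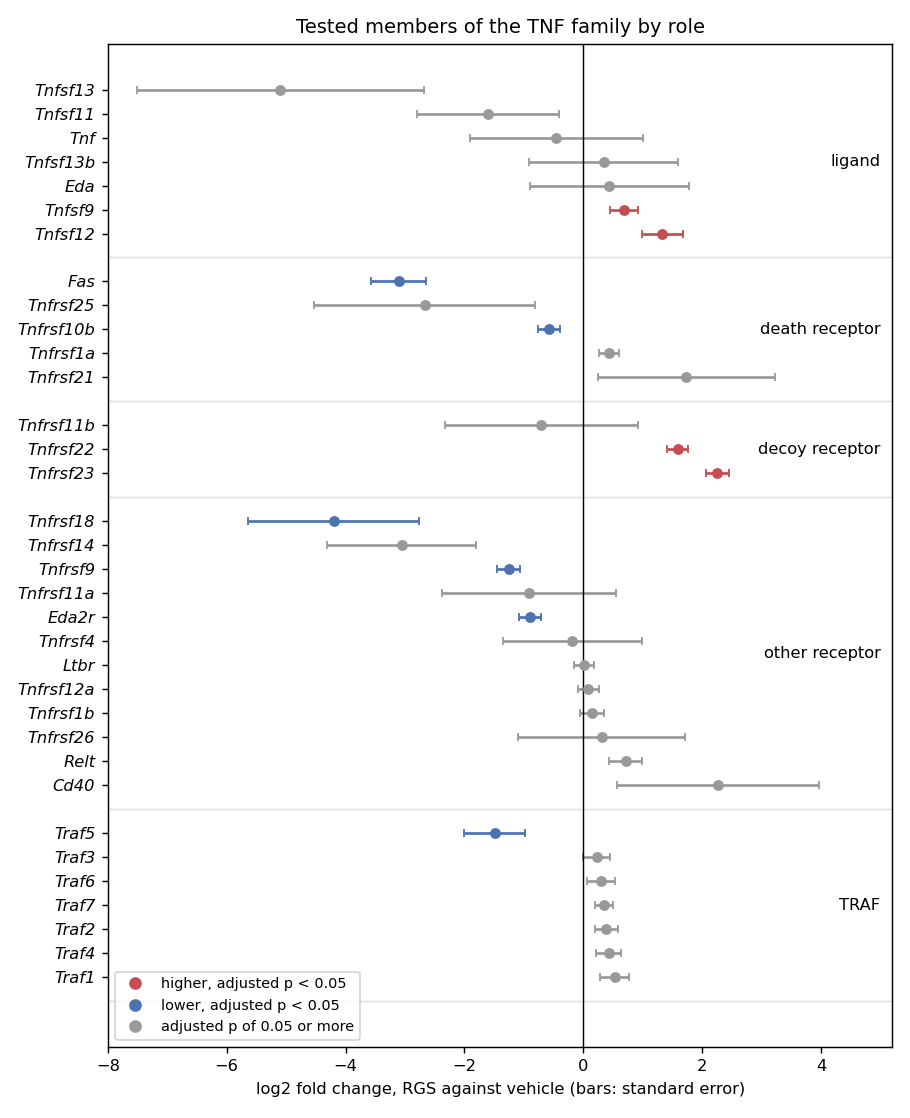
Log2 fold change of RGS against vehicle tumors (x axis; points, with bars of 1 standard error) for the 34 tested members, grouped by role (y axis); red and blue mark members called higher and lower, grey those not called. *Fas* stands at -3.11 and *Tnfrsf23* at 2.25 with short bars, while members with few counts, such as *Tnfsf13* and *Cd40*, have bars more than 1 log2 unit long.

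Ligand transcripts were scarce. Of the 18 ligands, 6 had no count in any tumor: *Fasl*, *Cd40lg*, *Tnfsf4*, *Tnfsf8*, *Tnfsf14* and *Tnfsf15*. A count of 0 allows a level of up to 0.0856 CPM in the deepest library and 0.226 CPM in the shallowest, at 3 counts a library, which covers counting error only. A further 5 ligands did not reach the test: *Tnfsf18* had at most 20 counts in a tumor, *Cd70* at most 5, *Tnfsf10* at most 4, *Lta* at most 2 and *Ltb* at most 1. *Tnfsf10*, which encodes TRAIL, was at 0 in the 3 vehicle libraries and had 2, 0 and 4 counts in RGS tumors 10, 11 and 12. Among 7 tested ligands, 2 were higher and none was lower, 28.6% called against 32.8% of all tested genes, with a median log2 fold change of 0.34. Ligands took 1.53% to 2.16% of the family's counts in vehicle tumors and 2.51% to 2.80% in RGS tumors.

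*Tnfsf9* encodes 4-1BBL, a costimulatory ligand for activated T cells. Its level was 18.9, 18.4 and 12.9 CPM in vehicle tumors 7, 8 and 9, and 29.8, 23.9 and 26.7 CPM in RGS tumors 10, 11 and 12. Every RGS tumor thus stood above every vehicle tumor, by 1.6-fold on average (log2 fold change 0.68 ± 0.23 SE, edgeR adjusted p = 0.0316). The call was lost with library-size scaling alone (edgeR adjusted p = 0.0969) and without vehicle tumor 8 (0.0565), vehicle tumor 9 (0.154), RGS tumor 10 (0.0994) or RGS tumor 12 (0.0660). *Tnfsf9* (chr17:57105325-57107757) shares 192 exonic bases with *Gm11110* on the opposite strand, and whether counting used strand is not given in the sources used here.

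*Tnfsf12* encodes TWEAK, the ligand of the receptor Fn14. Vehicle tumors had 5.88, 5.99 and 3.14 CPM, and RGS tumors had 11, 13.2 and 13.6 CPM. The lowest RGS tumor was above the highest vehicle tumor, and the groups differed 2.51-fold (log2 fold change 1.33 ± 0.35 SE, edgeR adjusted p = 0.00665). *Tnfsf12* (chr11:69686250-69695849) shares 731 exonic bases with the read-through gene *Tnfsfm13* on the same strand, which had 12 to 44 counts in a tumor and was not called.

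*Tnf* itself, the founding cytokine, had 12, 10 and 22 counts in vehicle tumors and 22, 0 and 2 in RGS tumors. The groups overlapped, and its log2 fold change was -0.45 with a 95% confidence interval from -3.50 to 2.59 (edgeR adjusted p = 0.841). With few counts that varied between tumors of a group, neither a rise nor a fall could be told from no difference. The sign turned without vehicle tumor 9 (0.18) or without RGS tumor 11 (0.09). *Tnfsf13*, which encodes APRIL, had 5, 10 and 1 counts in vehicle tumors and none in RGS tumors (edgeR adjusted p = 0.116). The remaining tested ligands, *Tnfsf11*, *Tnfsf13b* and *Eda*, had overlapping groups and at most 58 counts in a tumor.

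The death receptors were all tested. *Fas* and *Tnfrsf10b* were called lower, none was called higher, and the median log2 fold change of the 5 was -0.57. That median also rests on *Tnfrsf25*, which was not called and had at most 32 counts in a tumor. Over all tested genes 16.5% were lower, which the 2 of 5 can be read against. The groups did not overlap for 4 of the 5, against 45.8% of all tested genes. In RGS tumors *Fas* and *Tnfrsf10b* lay lower, while *Tnfrsf1a* and *Tnfrsf21*, neither of them called, lay higher. Of the 15 tested receptors outside this group, 3 were called lower and 2 higher (33.3% called), with a median of 0.01. Of the 29 tested members outside it, 8 were called (27.6%), with a median of 0.22. Both shares lay near the 32.8% called over all tested genes. Death receptors and the others were not tested against each other, and 5 genes give a coarse share.

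*Fas* (ENSMUSG00000024778.12, chr19:34290659-34327770) encodes the receptor for Fas ligand. It was read at 7.34, 12.3 and 21.3 CPM in vehicle tumors 7, 8 and 9, from 257, 345 and 495 counts. In RGS tumors 10, 11 and 12 it was at 1.85, 1.96 and 0.918 CPM, from 39, 26 and 15 counts. The vehicle tumors spread widely, with tumor 7 the lowest, but each stood well above the highest RGS tumor. The difference was 8.63-fold (log2 fold change -3.11 ± 0.46 SE, edgeR adjusted p = 4.51e-05), and it ranged from -3.41 to -2.63 over the 18 alternatives with a call in each.

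*Tnfrsf10b* (chr14:69767472-69784411) encodes the mouse death receptor for TRAIL. Its levels were 62.6, 47.4 and 47.2 CPM in vehicle and 35.9, 37.4 and 32.3 CPM in RGS tumors. The groups were separate, with a smaller gap than for *Fas*: 1.49-fold (log2 fold change -0.57 ± 0.19 SE, edgeR adjusted p = 0.0241). The call did not hold without vehicle tumor 7 (edgeR adjusted p = 0.0881), vehicle tumor 8 (0.0553), RGS tumor 10 (0.0513) or RGS tumor 12 (0.0720), and the direction was kept in all of these.

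*Tnfrsf1a*, the main signalling receptor of TNF, was at 148, 114 and 97.1 CPM in vehicle and 151, 165 and 167 CPM in RGS tumors. RGS tumors were higher throughout, though vehicle tumor 7 came close to RGS tumor 10. The log2 fold change of 0.43 ± 0.17 SE missed the threshold (edgeR adjusted p = 0.0608) and passed it in 5 alternatives, among them DESeq2 (adjusted p = 0.0371) and the fit without vehicle tumor 7 (log2 fold change 0.61, edgeR adjusted p = 0.00172). *Tnfrsf21* and *Tnfrsf25* were near the floor, with 5, 10 and 0 against 9, 9 and 10 counts, and with 32, 0 and 11 against 0, 3 and 0 counts, and neither was called.

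The decoy receptors showed the highest called log2 fold changes of the family. *Tnfrsf22* and *Tnfrsf23*, neighbours on chromosome 7 that encode decoy receptors for TRAIL in the mouse, were both higher in RGS tumors. *Tnfrsf22* (ENSMUSG00000010751.15, chr7:143634806-143649661) was at 85.6, 64.7 and 51.9 CPM in vehicle tumors and at 222, 187 and 199 CPM in RGS tumors. The groups were far apart, 3.00-fold (log2 fold change 1.59 ± 0.18 SE, edgeR adjusted p = 2.68e-06).

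*Tnfrsf23* (ENSMUSG00000037613.16, chr7:143665809-143685872) was at 58.3, 38.1 and 42.7 CPM in vehicle and at 235, 175 and 254 CPM in RGS tumors. This 4.77-fold difference (log2 fold change 2.25 ± 0.19 SE, edgeR adjusted p = 7.38e-08) also left the groups well separated. The transcripts of both genes share 527 stretches of 75 bases, 12.6% of those of *Tnfrsf22* and 13.1% of those of *Tnfrsf23*, so how the counting divided such reads makes part of each value uncertain. Their neighbour *Tnfrsf26* had 1 to 33 counts in a tumor with overlapping groups. *Tnfrsf11b*, which encodes osteoprotegerin, a decoy for RANKL, had 0, 11 and 34 counts against 20, 2 and 0 and was not called.

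**Figure D2:**
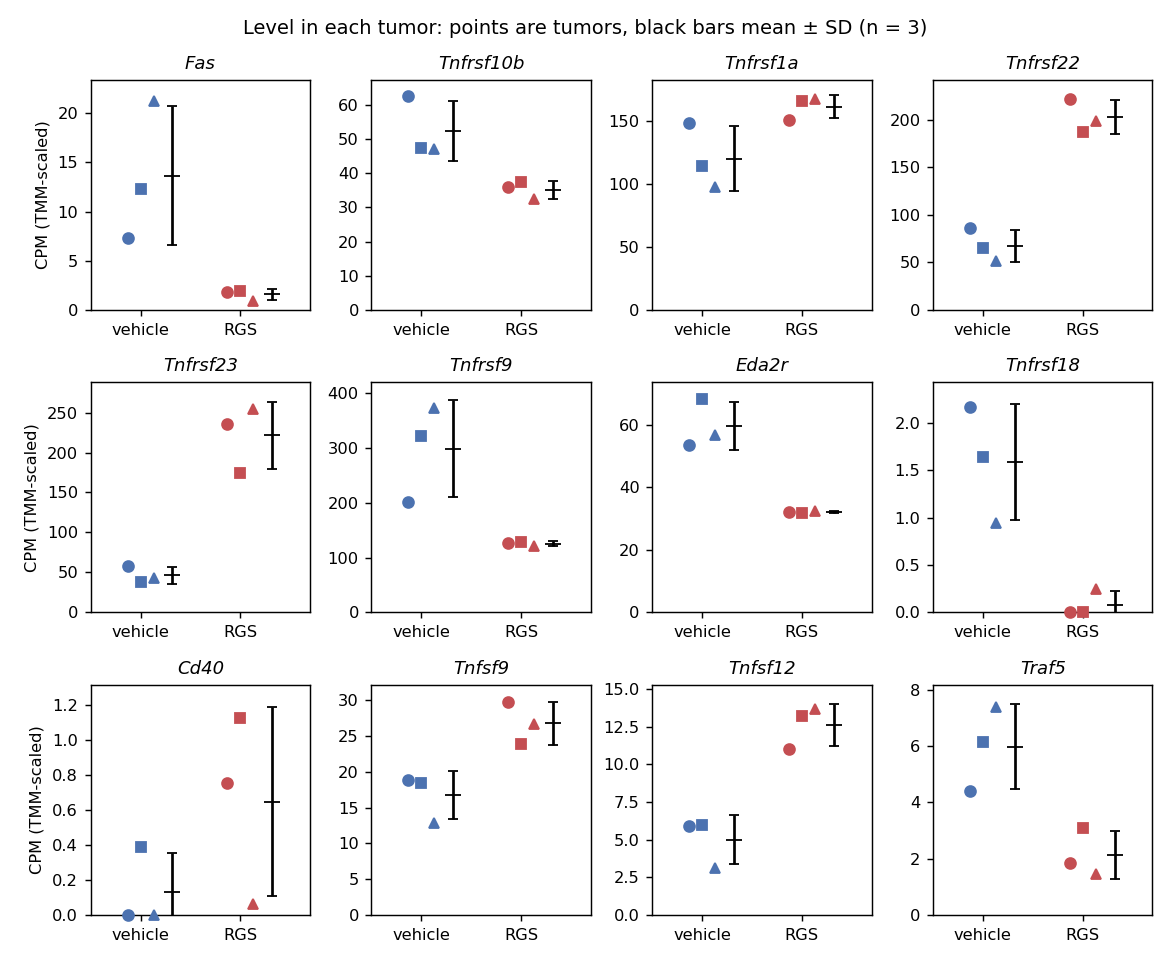
CPM (TMM-scaled, linear y axis from 0) of 12 members in the 3 vehicle (blue) and 3 RGS (red) tumors; circles, squares and triangles are tumors 7, 8 and 9 or 10, 11 and 12, and black bars give the mean ± SD, cut at 0 for *Cd40* and *Tnfrsf18*. Points of *Fas*, *Tnfrsf9* and *Eda2r* lie below, and those of *Tnfrsf22* and *Tnfrsf23* above, the vehicle range in all 3 RGS tumors, while the *Cd40* groups overlap.

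Among the 19 other receptors, 12 were tested; 3 were lower and none was higher, 25% called against 32.8% of all tested genes, and the median log2 fold change was -0.09. *Edar* and *Tnfrsf19* had no count, and *Cd27*, *Tnfrsf8*, *Tnfrsf13b*, *Tnfrsf13c* and *Tnfrsf17* had at most 30 counts in a tumor, most of them from 1 tumor each. *Tnfrsf9* (ENSMUSG00000028965.13, chr4:150914562-150946102) encodes 4-1BB, the receptor for the *Tnfsf9* product. It was at 201, 322 and 371 CPM in vehicle tumors and at 126, 129 and 120 CPM in RGS tumors. The RGS tumors lay close together below all vehicle tumors, of which tumor 7 was again the lowest, and the difference was 2.39-fold (log2 fold change -1.26 ± 0.19 SE, edgeR adjusted p = 5.71e-05). The ligand and its receptor thus went in opposite directions, in all 3 RGS tumors against all 3 vehicle tumors. The call of *Tnfsf9*, however, was lost in 5 of the 18 alternatives.

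*Eda2r* (ENSMUSG00000034457.10, chrX:97333840-97377216) encodes a receptor for an isoform of ectodysplasin. Its levels were 53.7, 68.3 and 56.6 CPM in vehicle and 32, 31.7 and 32.3 CPM in RGS tumors. The RGS tumors were nearly equal and all lower, 1.86-fold (log2 fold change -0.90 ± 0.18 SE, edgeR adjusted p = 0.000809). *Tnfrsf18*, which encodes the T cell costimulator GITR, had 76, 46 and 22 counts in vehicle tumors and 0, 0 and 4 in RGS tumors. It was called lower (log2 fold change -4.20 ± 1.43 SE, edgeR adjusted p = 0.0308), with a fold that depends on the small value the fit adds to counts of 0. That call was lost with the counts thinned to the smallest library (edgeR adjusted p = 0.0545) and without vehicle tumor 7 (0.131), vehicle tumor 8 (0.125), RGS tumor 10 (0.0848) or RGS tumor 11 (0.0704). An antisense gene, *Gm16008*, covers 414 of its exonic bases and had 80, 65 and 21 against 12, 5 and 0 counts, so the reads of both genes cannot be told apart if counting did not use strand.

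*Cd40* (chr2:165055627-165072948), a receptor known from antigen-presenting cells, had 0, 11 and 0 counts in vehicle tumors and 16, 15 and 1 in RGS tumors. In CPM this was 0, 0.392 and 0 against 0.757, 1.13 and 0.0612. RGS tumors 10 and 11 were above every vehicle tumor and RGS tumor 12 was below vehicle tumor 8, so the groups overlapped. The log2 fold change was 2.26 ± 1.7 SE with a 95% confidence interval from -1.29 to 5.82 (edgeR adjusted p = 0.332). These few counts varied between tumors of a group, so *Cd40* RNA could not be told to differ or to be equal.

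The remaining tested receptors were not called. *Tnfrsf12a*, which encodes Fn14, was at 185, 280 and 326 CPM in vehicle and 273, 288 and 278 CPM in RGS tumors, with a log2 fold change of 0.09 (95% confidence interval -0.29 to 0.46). *Ltbr*, the lymphotoxin beta receptor, differed by 0.01 (-0.34 to 0.36), from 73.0, 87.0 and 86.4 CPM to 74.6, 95.3 and 78.1 CPM. *Tnfrsf1b*, the second TNF receptor, was at 52.1, 34.2 and 33.2 CPM against 45.7, 40.8 and 46.5 CPM, a log2 difference of 0.15 (-0.27 to 0.58). In these 3 receptors the groups overlapped and each interval spanned 0. *Relt*, a lymphoid-associated receptor, stood higher in every RGS tumor, at 18.5, 14.4 and 15.0 CPM against 9.13, 8.34 and 11.8 CPM, and missed the threshold (log2 fold change 0.71, edgeR adjusted p = 0.0551), which it passed in 6 alternatives. *Tnfrsf14*, which encodes HVEM, had 61, 28 and 43 counts against 7, 0 and 3 and missed it too (log2 fold change -3.06, edgeR adjusted p = 0.0689), passing in 3 alternatives. *Tnfrsf4* and *Tnfrsf11a* had at most 37 counts in a tumor with overlapping groups.

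On a scale per length (CPM per kilobase of gene length), which allows genes to be compared, 22 members reached a mean of 1 in at least 1 group: 13 receptors, all 7 TRAFs and the ligands *Tnfsf9* and *Tnfsf12*. The median tested gene was at 3.80 in vehicle and 3.45 in RGS tumors. *Tnfrsf12a* was the highest member in both groups, at 136 ± 37.1 in vehicle and 145 ± 3.76 in RGS tumors (SD, n = 3). *Tnfrsf9* came next in vehicle tumors at 109 ± 32.3 and fell to 45.9 ± 1.61 in RGS tumors. In vehicle tumors 7, 8 and 9 it was at 73.7, 118 and 136, below *Tnfrsf12a* in each (95.8, 145 and 169). In RGS tumors the mean of *Tnfrsf9* stood below those of *Tnfrsf1a* (62.1 ± 3.46), *Tnfrsf23* (55.9 ± 10.5) and *Tnfrsf22* (48.0 ± 4.23). *Tnfrsf1a* was above it in each RGS tumor. *Tnfrsf23* and *Tnfrsf22* were above it in RGS tumors 10 and 12 and below it in RGS tumor 11. Among the 15355 genes, counting from the highest, *Tnfrsf9* went from rank 409 to rank 1177 and *Tnfrsf23* from rank 4013 to rank 930. Together, *Tnfrsf9* and *Tnfrsf12a* held 30.5% to 49.0% of the family's counts in vehicle tumors and 24.9% to 26.6% in RGS tumors.

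Levels per kilobase are set side by side here for the ligands and receptors described above. *Fas* was read at 7.57 ± 3.93 and 0.874 ± 0.317 per kilobase while *Fasl* had no count in any tumor, and *Cd40* at 0.0384 ± 0.0664 and 0.191 ± 0.159 while *Cd40lg* had none. The TRAIL receptors *Tnfrsf10b*, *Tnfrsf22* and *Tnfrsf23* were read in all 6 tumors, and their ligand *Tnfsf10* in 2. Both decoys were higher and the death receptor was lower in RGS tumors. On this scale *Tnfrsf10b* went from 9.61 ± 1.62 to 6.46 ± 0.479 while *Tnfrsf23* went from 11.7 ± 2.68 to 55.9 ± 10.5. The call of *Tnfrsf10b* was lost in 4 of the 18 alternatives. *Tnfsf12* rose from 3.30 ± 1.07 to 8.33 ± 0.921 beside a receptor, *Tnfrsf12a*, that was not called. *Tnfsf9*, whose call was lost in 5 of the 18 alternatives, rose from 13 ± 2.6 to 20.8 ± 2.31 beside *Tnfrsf9*, which fell.

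**Figure D3:**
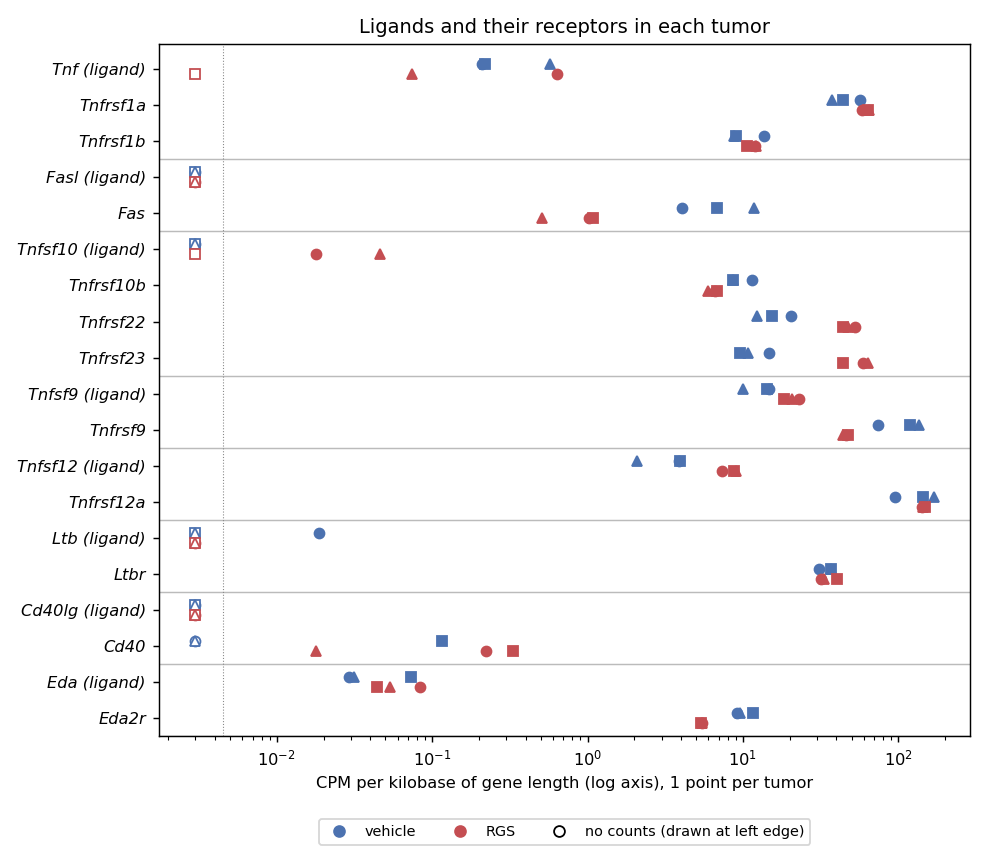
CPM per kilobase of gene length (log axis) of ligands and the receptors they are known to bind, 1 point per tumor, vehicle in blue and RGS in red; open points at the left edge had no counts. *Fasl* and *Cd40lg* are at 0 in all 6 tumors, and *Tnfrsf22* and *Tnfrsf23* lie above 44 in RGS tumors and below 21 in vehicle tumors.

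The TRAF adaptors, which link receptors to ubiquitin ligases and kinases, were all tested; 1 was lower and none was higher, 14.3% called against 32.8% of all tested genes, and the median log2 fold change was 0.35. *Traf5* was at 4.40, 6.13 and 7.4 CPM in vehicle and 1.85, 3.09 and 1.47 CPM in RGS tumors. The groups were separate (log2 fold change -1.49 ± 0.52 SE, edgeR adjusted p = 0.0331), and the call was lost without vehicle tumor 8 (edgeR adjusted p = 0.115), vehicle tumor 9 (0.134), RGS tumor 10 (0.0655) or RGS tumor 12 (0.0631). The *Traf5* entry examined lies on an alternate scaffold of the genome build. It was the only entry in the count table with this symbol, so no chromosome 1 entry of *Traf5* was there to analyse. The other 6 TRAFs had positive log2 fold changes from 0.22 (*Traf3*) to 0.53 (*Traf1*) and were not called. The groups did not overlap for 4 of the 7 TRAFs (*Traf1*, *Traf2*, *Traf5* and *Traf7*), against 45.8% of all tested genes. *Traf7* was at 129, 115 and 119 CPM in vehicle and 168, 156 and 139 CPM in RGS tumors (edgeR adjusted p = 0.0867).

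Genes that act with the receptors were read in 5 lists totalling 58 genes, of which 56 were tested, 11 were higher and 10 were lower, with a median log2 fold change of -0.02. That is 37.5% called against the 32.8% of all tested genes. In the death signalling list, 8 of 9 genes were tested and 1 was called (12.5%): *Casp8*, the initiator caspase of death receptors, was at 38.7, 39.9 and 40.8 CPM in vehicle and 57.4, 65.5 and 72.6 CPM in RGS tumors (log2 fold change 0.71 ± 0.17 SE, edgeR adjusted p = 0.00381). Every RGS tumor was higher. The adaptors *Fadd* (-0.06) and *Tradd* (0.47), the kinase *Ripk1* (-0.17) and the caspase 8 inhibitor *Cflar* (-0.07) were not called, and their groups overlapped.

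Among 11 ubiquitin enzymes and partners, 1 was higher and 4 were lower, against 16.3% higher and 16.5% lower over all tested genes. *Birc2*, which encodes the ubiquitin ligase cIAP1 of TNF receptor complexes, had a log2 fold change of -1.11, *Rnf31*, the catalytic subunit of the linear ubiquitin ligase, of -0.80, and the TRAF-binding *Tank* of -0.61. *Rbck1*, another subunit of that ligase, was the fourth (-0.54). *Otulin*, which removes linear ubiquitin chains, was higher (0.79). Of 17 kinases and NF-kB genes, 3 were called (17.6% against 32.8% of all tested genes): *Map3k5* (ASK1; 1.25) and *Rela* (the p65 subunit; 0.70) were higher and *Tab2*, an adaptor of the kinase TAK1, was lower (-0.56).

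Of the 6 genes for shedding and processing, 3 were higher: *Furin* (log2 fold change 1.03), which processes proligands, *Rhbdf2* (0.64), a partner of the sheddase, and *Adam17* (0.51), the sheddase of TNF and its receptors. *Timp3*, an inhibitor of that sheddase, was lower (-1.18), from 87.6, 67.8 and 40.3 CPM to 37.7, 27.1 and 21.2 CPM. All 4 had groups that did not overlap, as did 45.8% of all tested genes, and the 4 of 6 called compare with 32.8% of all tested genes; a list of 6 genes gives a coarse share.

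The list of genes known to be induced by NF-kB did not move one way, with 4 of 14 tested higher and 4 lower, that is 57.1% called against 32.8% of all tested genes. *Csf2*, which encodes GM-CSF, was at 1.83, 2.57 and 5.2 CPM in vehicle tumors and at 82.9, 80.5 and 110 CPM in RGS tumors (log2 fold change 4.86 ± 0.31 SE, edgeR adjusted p = 1.54e-09). *Cxcl2* (0.93) and *Sele* (0.69) were also higher. In the other direction, *Cxcl10*, a chemokine for T cells, went from 15.4, 18.9 and 20.6 CPM to 0.142, 2.71 and 1.16 CPM (log2 fold change -3.84 ± 0.57 SE, edgeR adjusted p = 4.05e-05). *Ccl5* (-3.30) and the adhesion molecule *Vcam1* (-2.42) were lower as well.

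**Figure D4:**
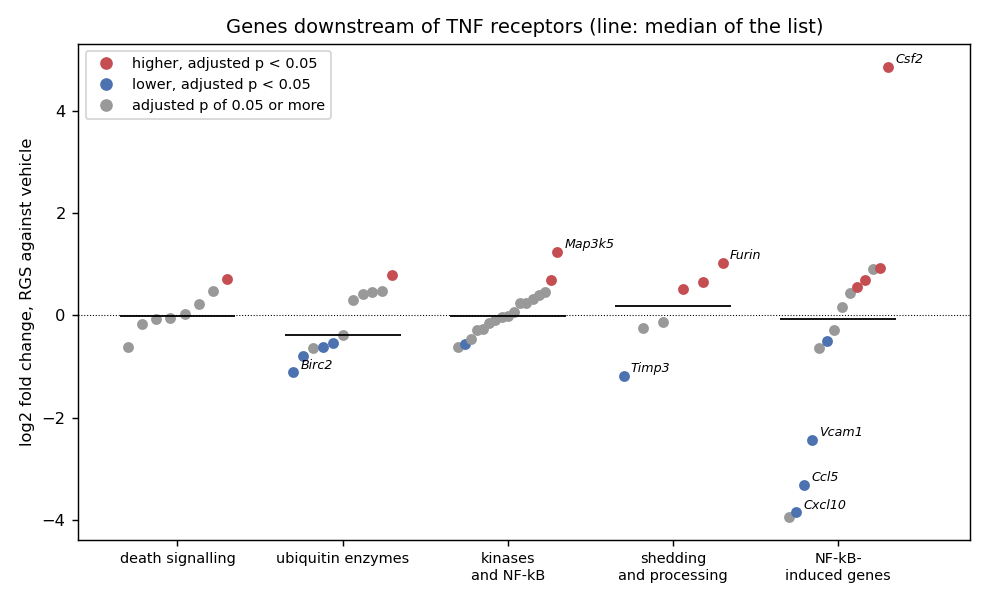
Log2 fold change of RGS against vehicle tumors (y axis) for the tested genes of 5 lists (x axis); each point is a gene, red called higher, blue called lower, grey not called, and the line is the median of the list. The medians lie between -0.37 (ubiquitin enzymes) and 0.19 (shedding and processing), and the NF-kB-induced genes spread from -3.94 to 4.86.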

How the data were processed

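RNA of 6 YUMM3.3 tumors was sequenced by the authors as paired reads of 150 bases. The authors deposited raw counts per gene. Per the submitters' processing notes, cutadapt 1.18, FastQC 0.11.7, STAR 2.7.1a, featureCounts 1.6.4 and mm10 were used; strand setting, multimapping and annotation release are not given in the sources used here. The authors also deposited a gene length column, used for CPM per kilobase. Groups came from the labels.

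Genes with a median count of at least 5 in 1 group were fitted with edgeR 4.0.16 (quasi-likelihood, TMM; R 4.3.3), RGS against vehicle, with Benjamini-Hochberg adjustment over 15355 genes at 0.05. Fitted SEs are the log2 fold change over the root of F. CPM used TMM-scaled libraries. A permutation test of 3 against 3 tumors cannot go below p = 0.1, so none is given. The edgeR step alone was tried on counts simulated from the mean levels and library sizes. The simulation had few changed genes and the same spread setting for all genes, unlike these data. It therefore does not measure how reliable the calls are here. Libraries of a group differed beyond sampling noise (chi-square per degree of freedom 19.7 to 132).

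Members were picked by symbol and lists were written by hand, with earlier results of these data known. Values per tumor were given for called members with a mean of at least 1 CPM and for preset members (*Cd40*, *Fas*, *Tnf* and their partners), and others were added where they narrowly missed the threshold or were not called at high level. From each list up to 3 called genes a direction were named, with groups that did not overlap. *Fadd*, *Tradd*, *Ripk1*, *Cflar*, *Rbck1* and these additions were named after their values were seen. Of 52 members, 50 have the same coordinates in GENCODE M21 (GRCm38), and 42 matched an entry in the table of RefSeq promoters used here. The 10 not matched there were *Tnfsf12*, *Tnfrsf10b*, *Tnfrsf26*, *Tnfsf9*, *Tnfrsf11b*, *Cd40lg*, *Tnfsf4*, *Tnfrsf22*, *Cd40* and *Cd70*. Alternatives covered scaling, filters, DESeq2 1.42.0, limma voom 3.58.1, thinning, a length offset, thresholds and leaving out each tumor.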

Additional observations from a re-analysis of the deposited data

How the results depend on the processing

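Of the main counts (4 family members higher, 6 lower, 2 death receptors lower, 11 genes of the lists higher and 10 lower, 2503 and 2533 of all genes), DESeq2 and a length offset each called 7 family members higher. With a further minimum of 1 on the absolute log2 change, death receptors lower were 1, list genes 3 higher and 5 lower, and all genes 1168 higher and 1450 lower. At an adjusted p below 0.01, family members lower were 3, death receptors lower 1, list genes 6 higher and 6 lower, and all genes 1607 and 1562. With library size only, 6 list genes were higher, the median of all genes shifted by -0.14 on the log2 scale, and 37.2% of all calls were higher against 49.7% in the main result. Leaving out 1 tumor gave 3 to 7 family members higher (7 without vehicle tumor 7) and 3 to 5 lower (3 without vehicle tumor 8 or RGS tumor 10). It gave 1 to 2 death receptors lower, 7 to 10 list genes higher (7 without vehicle tumor 8), 7 to 10 lower, and 1776 to 2698 and 1717 to 2551 of all genes. The log2 fold change of *Tnf*, not called, ranged from -2.99 to 0.18 with 1 tumor left out, and its sign turned without vehicle tumor 9 (0.18) or RGS tumor 11 (0.09). The cause of these changes was not tested. No paired analysis was possible because the replicate numbers, 7 to 9 and 10 to 12, are shared by no vehicle and RGS tumor. The members with few counts are read least surely: 18 were not tested, and *Cd40*, *Tnf* and *Tnfrsf18* rest on at most 76 counts in any tumor. How far depth or the spread between tumors limits them was not tested.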
